A study of Mus musculus with 9 samples.

Results

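Laminins, nidogens and perlecan are the structural proteins of basement membranes, the thin sheets of matrix that underlie the epidermis and surround blood vessels, nerves, muscle fibres and fat cells. The 9 genes described here were those of the array whose symbol is Lama3, Lamb3, Lama2, Lama4, Lamb1, Lamc1, Nid1, Nid2 or Hspg2, out of 19505 genes measured, and each was represented by 1 feature. They were divided by the site where their products are best known. Lama3 and Lamb3 encode the alpha and beta chains of laminin-332 in the epidermal basement membrane, and the other 7 genes encode laminin chains, nidogens and perlecan of dermis and vessels. This division is not exclusive, because nidogens, perlecan and shared laminin chains also belong to the basement membrane under the epidermis.

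The skin came from the back of C57BL/6J mice aged 8 weeks, and every sample had received imiquimod cream (5%) daily for 7 days, a Toll-like receptor agonist that induces psoriasis-like dermatitis in mice. In the stretch group (n = 5) the skin was also under traction from a plastic device glued to it and elongated by 10 mm, and in the no-stretch group (n = 4) it was not. The labels do not say whether non-stretched skin carried the device, so effects of the device and of stretch cannot be told apart. Whether each sample was a different mouse is not stated either, so the p-values reflect the spread among samples that may be partly technical.

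A laminin is a cross-shaped trimer of an alpha, a beta and a gamma chain. The alpha chain binds integrins and dystroglycan on cells, the gamma-1 chain (Lamc1) carries the main binding site for nidogens, and nidogens link laminin to type IV collagen and to perlecan, a large heparan sulphate proteoglycan that holds growth factors. In skin, basal keratinocytes make laminin-332, which anchors hemidesmosomes, whereas fibroblasts, endothelial cells and other cells of the dermis make much of the nidogen and the chains of vessel, nerve and muscle laminins.

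Expression was read from Affymetrix arrays as log2 values, so a difference of 1 is a 2-fold difference. Array medians lay between 5.81 and 5.99. Markers of the tissue were present in both groups: the basal keratins Krt5 and Krt14 had no-stretch means of 17.48 and 18.97, the collagen gene Col1a1 16.16 and the endothelial gene Pecam1 10.30. No-stretch replicate 3 correlated least with the other arrays (median r = 0.975 across genes, against 0.980 to 0.987 for the others). Among the 9 genes, stretch replicate 3 was the lowest of the 5 stretched arrays for 8, while over all genes it was the lowest for 22.7%. Values of the 9 genes and of the gene lists are also given without an array where leaving it out moved them by over 1.5 times or changed a call.

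For 5 of the 9 genes a start site was found in a RefSeq promoter table of the mouse build GRCm38.p6. The sequence before the Nid1 start is shown because Nid1 alone among the 9 passed the test described below, and that of Hspg2 because its product is a binding partner of nidogen-1 and its change did not pass. Only bases before the outermost annotated start of each gene are printed, 5′ to 3′ on the plus strand, with the motif matches in capitals. The Nid1 sequence lies at chr13:13437352-13437601 and the Hspg2 sequence at chr4:137468553-137468750.
Nid1: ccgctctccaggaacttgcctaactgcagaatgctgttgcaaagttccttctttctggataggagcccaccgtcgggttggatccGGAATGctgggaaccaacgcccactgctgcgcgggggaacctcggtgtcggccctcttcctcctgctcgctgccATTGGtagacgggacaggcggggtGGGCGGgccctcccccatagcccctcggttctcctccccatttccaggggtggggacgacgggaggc
Hspg2: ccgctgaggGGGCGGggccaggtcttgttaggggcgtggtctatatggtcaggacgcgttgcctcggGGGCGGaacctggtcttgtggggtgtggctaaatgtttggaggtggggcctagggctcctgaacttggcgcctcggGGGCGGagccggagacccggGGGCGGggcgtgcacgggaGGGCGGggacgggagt
Motifs were searched on both strands in the 250 bases before each start: GGGCGG (the GC box), CCAAT (the CCAAT box), GGAATG (bound by TEAD factors), TGANTCA (AP-1), TATAAA (the TATA box) and TTCNNNGAA (STAT). No 2 of the matches in these windows overlapped. Nid1 had 1 match each to the GC box, the CCAAT box and the TEAD motif, which occurred in 32.7%, 33.8% and 12.6% of all 32851 promoter windows. Hspg2 had 5 GC boxes, and Lamb1 had 2 GC boxes and 1 CCAAT box. Lamb3 has 2 starts in the table, of which the second had 1 TEAD match and the first none of the 6 motifs. Lama2 had none. A match is a description of letters and was not tested as a site.

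Across all genes, 0.246% passed limma's moderated test of stretch minus no stretch at a Benjamini-Hochberg adjusted p of 0.05, and 1 of the 9 genes did. That gene was Nid1, which was lower with stretch, as were 0.164% of all genes by the same rule, while 0.082% of all genes and 0 of the 9 were higher by it. Both groups were fully separated for 3 of the 9, against 4.54% of all genes: Lama3 was higher on all stretched arrays, like 2.38% of all genes, and Lama2 and Nid1 were lower on all of them, like 2.15%. An unadjusted p under 0.05 was reached by 5 of the 9 (13% of all genes), Lama3 and Lamb3 on the higher side (6.92% of all genes) and Lama2, Lamc1 and Nid1 on the lower side (6.07%). The median log2 change of the 9 was -0.29, beside -0.0034 over all genes, and 3 of the 9 were higher.

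Lama3 encodes the alpha-3 chain, through which laminin-332 binds the integrins of basal keratinocytes. Its log2 level was 12.95, 13.18, 12.59, 13.16 and 13.31 in stretch replicates 1 to 5 and 12.21, 11.73, 11.01 and 12.33 in no-stretch replicates 1 to 4. Every stretched array lay above every non-stretched one, with a gap of 0.26 between stretch replicate 3 and no-stretch replicate 4. The means were 13.04 ± 0.28 (SD, n = 5) and 11.82 ± 0.60 (SD, n = 4). They differed by 1.22 on the log2 scale (95% confidence interval 0.64 to 1.80), or 2.33-fold. This missed the threshold over all genes (limma adjusted p = 0.084), and without no-stretch replicate 3, the lowest array, the log2 change was 0.95 (limma adjusted p = 0.18).

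Lamb3 encodes the beta-3 chain of the same trimer. Its log2 level was 9.61, 10.15, 9.04, 9.76 and 9.85 with stretch and 8.56, 9.51, 7.53 and 8.94 without. The groups overlapped, since stretch replicate 3 lay below no-stretch replicate 2. Its log2 change was 1.05 (95% confidence interval 0.28 to 1.82; limma adjusted p = 0.23), or 2.07-fold, and it was 0.68 (limma adjusted p = 0.47) without no-stretch replicate 3. Both chains were lowest of all 9 arrays on that same array.

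**Figure D1:**
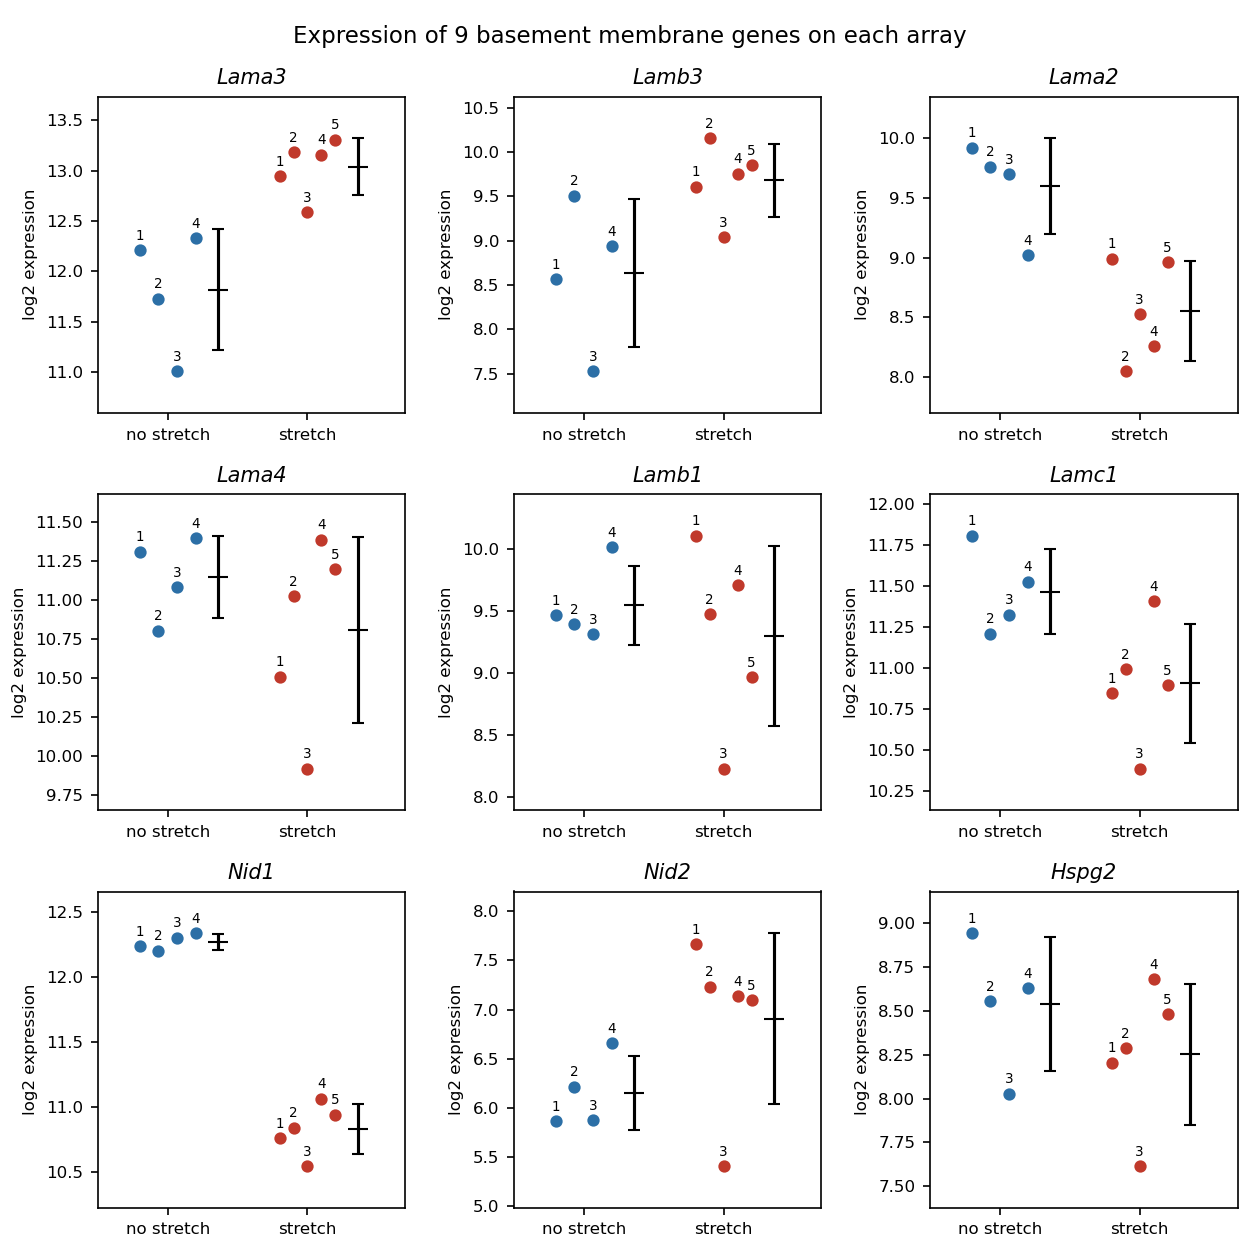
Log2 expression of the 9 genes on each array, 1 panel per gene with its own vertical axis; points are arrays numbered by replicate (blue, no stretch; red, stretch), and the bar beside each group is the mean ± SD. Nid1 and Lama2 lie lower and Lama3 higher on every stretched array than on any non-stretched one, and stretch replicate 3 is the lowest stretched array for 8 of the 9 genes.

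Among the genes of dermis and vessels, Nid1 fell 2.72-fold. It encodes nidogen-1, the linker between laminin and type IV collagen. The log2 level of Nid1 was 10.76, 10.84, 10.55, 11.07 and 10.94 with stretch and 12.24, 12.21, 12.31 and 12.34 without. The groups were separated by 1.14, which is more than the width of either group, 0.52 with stretch and 0.13 without. The log2 change was -1.44 with a standard error of 0.15 (95% confidence interval -1.78 to -1.11; limma adjusted p = 0.0087), and by p-value Nid1 ranked at place 2 of the 19505 genes. In bulk skin, fewer cells of a type and less RNA per cell cannot be told apart.

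Its homologue Nid2, which encodes nidogen-2, did not follow. The log2 level of Nid2 was 7.67, 7.23, 5.41, 7.13 and 7.09 with stretch and 5.86, 6.22, 5.87 and 6.66 without. All stretched arrays except replicate 3 lay above all non-stretched ones, and replicate 3 lay below them all. The log2 change of 0.75 (95% confidence interval -0.09 to 1.60) did not pass (limma adjusted p = 0.44). Without stretch replicate 3 it was 1.13 and passed (limma adjusted p = 0.046). On that array Nid1 was also the lowest of all 9. The difference between the changes of the 2 nidogens was not tested.

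Lama2 encodes the alpha-2 chain of the laminin found around muscle fibres, Schwann cells and some dermal cells. Its log2 level was 8.99, 8.05, 8.52, 8.26 and 8.96 with stretch and 9.92, 9.76, 9.70 and 9.02 without. The groups did not overlap, but only 0.027 separated stretch replicate 1 from no-stretch replicate 4. The change was -1.04 (95% confidence interval -1.59 to -0.49), or 2.06-fold lower, and missed the threshold (limma adjusted p = 0.11).

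Lamc1 encodes the gamma-1 chain, shared by most laminins. Its log2 level was 10.85, 10.99, 10.39, 11.41 and 10.89 with stretch and 11.81, 11.21, 11.32 and 11.52 without. Of the stretched arrays only replicate 4 reached into the no-stretch range. The log2 change of Lamc1 was -0.56 (95% confidence interval -1.03 to -0.09; limma adjusted p = 0.29).

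The other 3 genes overlapped broadly. Lama4, the alpha-4 chain of vessel and fat-cell laminins, ranged from 9.92 to 11.38 with stretch and from 10.80 to 11.39 without, a log2 change of -0.34 (95% confidence interval -0.96 to 0.28), and of -0.12 without stretch replicate 3. Lamb1, the beta-1 chain that pairs with alpha-2 and alpha-4, ranged from 8.23 to 10.11 with stretch and from 9.31 to 10.02 without. Its log2 change was -0.25 (95% confidence interval -0.98 to 0.48), 0.017 without stretch replicate 3, -0.45 without stretch replicate 1, and -0.094 when no-stretch replicate 4 was omitted. Hspg2, which encodes perlecan, ranged from 7.61 to 8.68 with stretch and from 8.03 to 8.94 without, a log2 change of -0.29 (95% confidence interval -0.82 to 0.25). Leaving out single arrays moved the change of Hspg2 to -0.13 (stretch replicate 3), -0.15 (no-stretch replicate 1) or -0.46 (no-stretch replicate 3). For these 3 genes the limma adjusted p on all arrays lay between 0.65 and 0.79. The intervals include falls and rises, so a constant level is not shown.

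The laminin-332 chains were set against the 7 other genes within each array, with each gene taken relative to its no-stretch mean. The mean of Lama3 and Lamb3 was 1.05, 1.44, 0.59, 1.23 and 1.35 in stretch replicates 1 to 5, and 0.16, 0.39, -0.96 and 0.41 in the no-stretch replicates. The mean of the 7 dermal and vascular genes was -0.23, -0.40, -1.16, -0.15 and -0.31 with stretch and 0.12, -0.08, -0.16 and 0.12 without. Stretch replicate 4, at -0.155, lay just above no-stretch replicate 3, at -0.158, so this mean overlapped between the groups. The difference between both means was 1.58 ± 0.24 (SD, n = 5) with stretch, from 1.29 to 1.84, and ranged from -0.80 to 0.47 without stretch (SD 0.56, n = 4). Stretch replicate 3, the lowest stretched array for both means, had a difference of 1.74, within the range of the other 4 stretched arrays. Leaving out single arrays moved the difference between groups from 1.58 to values between 1.32 (without no-stretch replicate 3) and 1.74. By group, the mean of Lama3 and Lamb3 changed by 1.13 and that of the 7 other genes by -0.45. Among the 7, Nid1 (-1.44) and Lama2 (-1.04) fell most, and Nid2 rose (0.75). Lamc1, Lama4, Hspg2 and Lamb1 had changes between -0.56 and -0.25. As the genes were chosen with results known, the difference score has no p-value.

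**Figure D2:**
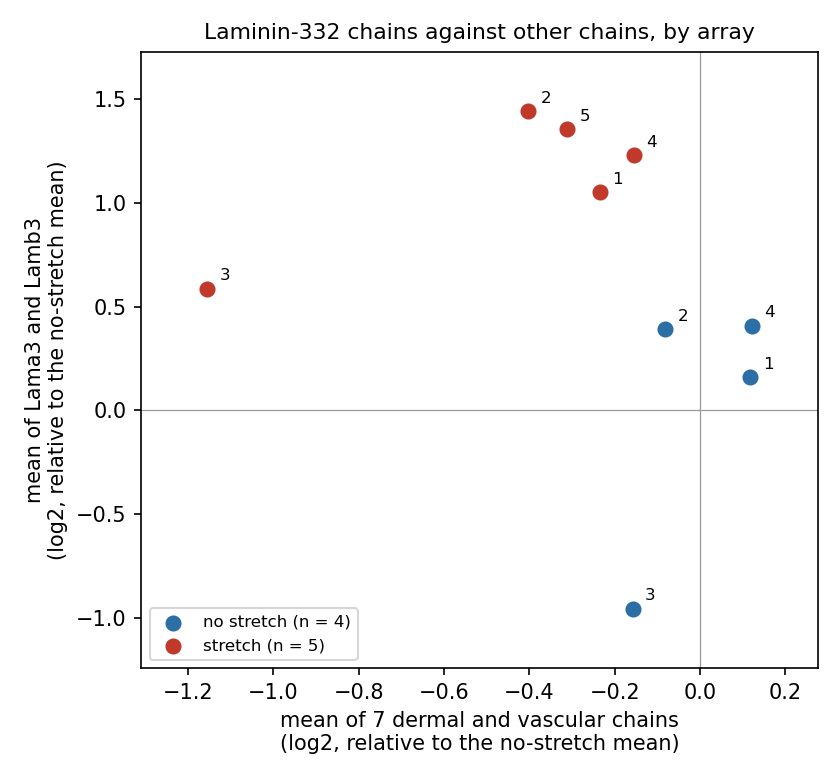
Mean of Lama3 and Lamb3 (vertical) against the mean of the 7 dermal and vascular genes (horizontal) on each array, in log2 units relative to the no-stretch mean of each gene; points are arrays numbered by replicate (blue, no stretch; red, stretch). The stretched arrays lie between 0.59 and 1.44 on the vertical axis and the non-stretched ones between -0.96 and 0.41.

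Levels of some cell type markers also differed between stretch and no stretch. Of 7 measured fibroblast markers 7 were lower with stretch. Of these 1, the matrix protein gene Dpt, passed (log2 change -2.30, limma adjusted p = 0.025), like 0.164% of all genes on the lower side. The mean of the fibroblast markers relative to no stretch lay between -1.08 and -0.59 on stretched arrays and between -0.07 and 0.19 on non-stretched ones, without overlap. Col1a1 had a log2 change of -0.88, Col1a2 of -0.82 and Dcn of -0.34. Adipocyte markers were lower in 4 of 5, with means of -1.32 to -0.30 against -0.36 to 0.35. Schwann cell markers were lower in 2 of 2 measured, out of 5 listed, with means of -0.80 to 0.09 against -0.32 to 0.23. These 2, Sox10 and Mbp, had no-stretch means of 3.97 and 5.89, and Sox10 may lie near background. The part of these cell types in the lower levels of Nid1, Lama2 and Lamc1 was not tested.

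Blood endothelial markers were higher in 6 of 8, with means of -0.23 to 0.64 with stretch against -0.47 to 0.24 without. Pecam1 had a log2 change of 0.56 (limma adjusted p = 0.39), and the angiopoietin receptor gene Tek went the other way at -0.84 (limma adjusted p = 0.078). Pericyte and smooth muscle markers were higher in 3 of 7, with means of -0.35 to 0.17 against -0.18 to 0.17. Skeletal muscle markers, 6 of 6 lower, ranged from -2.10 to 0.15 with stretch and from -0.36 to 0.36 without, the lowest value being stretch replicate 1. Lymphatic markers were lower in 4 of 4 (-0.76 to -0.16 against -0.35 to 0.36). Of these 1, the chemokine gene Ccl21a, passed (log2 change -1.35, limma adjusted p = 0.045), like 0.164% of all genes on the lower side.

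Beside the laminin-332 chains, basal keratinocyte markers were higher in 4 of 7, with means of -0.42 to 0.27 with stretch and -0.18 to 0.08 without. Those 4 were Krt14 and the hemidesmosome genes Col17a1, Itgb4 and Dst. Krt5 had a log2 change of -0.08 and Krt14 of 0.56 (limma adjusted p = 0.33), while Krt15 and Trp63 had changes of -1.16 and -0.60. Suprabasal markers were lower in 4 of 4 (-1.37 to -0.29 against -0.47 to 0.30). Of these, Krt1 and Krt10 had no-stretch means of 19.92 and 19.77 and log2 changes of -0.06 and -0.24. On no-stretch replicate 3 both were at 19.91, so they may lie near the top of the measured range. Neutrophil markers were higher in 5 of 5 (0.55 to 1.77 against -0.61 to 0.74) and macrophage markers in 4 of 4 (-0.61 to 1.14 against -0.41 to 0.78). The array lowest in Lama3 and Lamb3, no-stretch replicate 3, was also the lowest non-stretched one for the basal markers. The lowest of all 9 for these markers was stretch replicate 4 (-0.42), where Lama3 was at 13.16. On stretch replicate 4 Krt15 was at 6.61, against a no-stretch mean of 9.97, and weighed most on the marker mean. The part of cell composition in the higher laminin-332 chains was not tested.

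**Figure D3:**
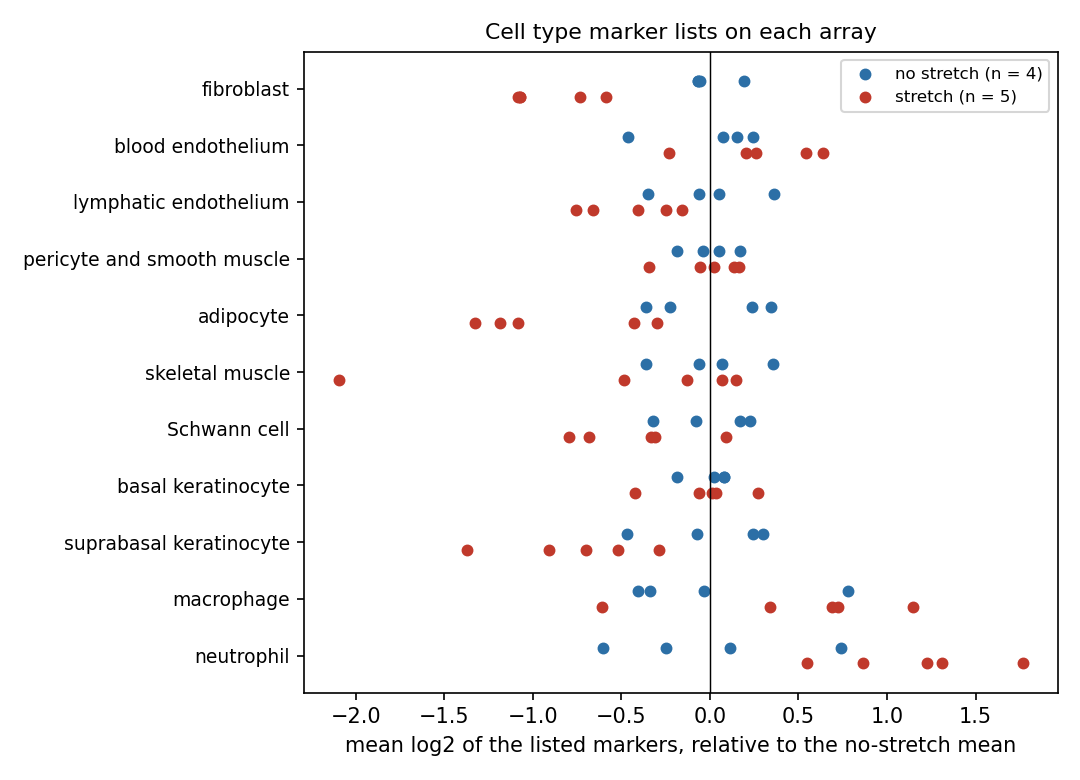
Mean log2 level of each cell type marker list on each array relative to its no-stretch mean (blue, no stretch; red, stretch; 1 point per array). The fibroblast markers separate, between -1.08 and -0.59 with stretch and between -0.07 and 0.19 without, and the basal keratinocyte markers overlap.

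The remaining laminin chains and the related netrin gene Ntn4 gave 5 measured genes, of which 2 were higher and 3 lower and 0 passed limma's test. Their median log2 change was -0.36 (-0.22 without stretch replicate 5). An unadjusted p under 0.05 was found for 2, both lower, beside 6.07% of all genes on that side. Lamb2, the beta-2 chain of vessels and nerve endings, was 8.10, 8.95, 8.70, 8.89 and 9.18 with stretch and 9.59, 9.28, 9.91 and 9.75 without, so the groups did not overlap. Its log2 change was -0.87 (limma adjusted p = 0.14). Lamc3, the gamma-3 chain, had a log2 change of -0.44, Ntn4 of -0.36 and Lama5, an alpha chain of the epidermal and vascular basement membrane, of 0.25.

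Receptors of laminins and components of the hemidesmosome leaned to the higher side. Of 15 measured genes 11 were higher and 4 lower with stretch, 0 passed limma's test, and 5, all higher, had an unadjusted p under 0.05. Over all genes 9667 of 19505 were higher, and 6.92% were higher with such a p. Col17a1, Itgb4 and Dst of this list were also counted among the basal keratinocyte markers above. The median log2 change was 0.37, and 0.24 without no-stretch replicate 3. Itga7, the alpha-7 integrin of muscle, was 7.63, 7.98, 7.91, 8.79 and 8.17 with stretch and 6.92, 7.14, 7.32 and 7.62 without. Its groups were separated by a narrow gap, and its log2 change was 0.85 (limma adjusted p = 0.16). Itga2 and Itgb1, which pair in a receptor for collagen and laminin, had log2 changes of 0.67 and 0.65. Itga6, the integrin chain of the hemidesmosome, had 0.77, or 0.46 without no-stretch replicate 3, and its partner Itgb4 had 0.40.

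Among 25 other components of basement membranes 8 were higher and 17 lower, and 0 passed limma's test. Their median log2 change was -0.18 (-0.12 without stretch replicate 4 and -0.27 without stretch replicate 5). An unadjusted p under 0.05 was reached by 4 on the higher side (6.92% of all genes) and 5 on the lower (6.07%). The 2 chains of the common type IV collagen, to which nidogen binds, had positive changes. Col4a1 was 8.08, 7.54, 7.86, 8.15 and 7.44 with stretch and 6.68, 7.13, 6.89 and 7.35 without, all stretched arrays being higher, with a log2 change of 0.80 (limma adjusted p = 0.14), and Col4a2 had 0.84 (limma adjusted p = 0.18). Efemp1, the fibulin-like gene, had a log2 change of -1.25 (limma adjusted p = 0.095). Hmcn1, hemicentin-1, had -0.85, and Egfl6 had -0.68 (limma adjusted p = 0.11 and 0.14).

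**Figure D4:**
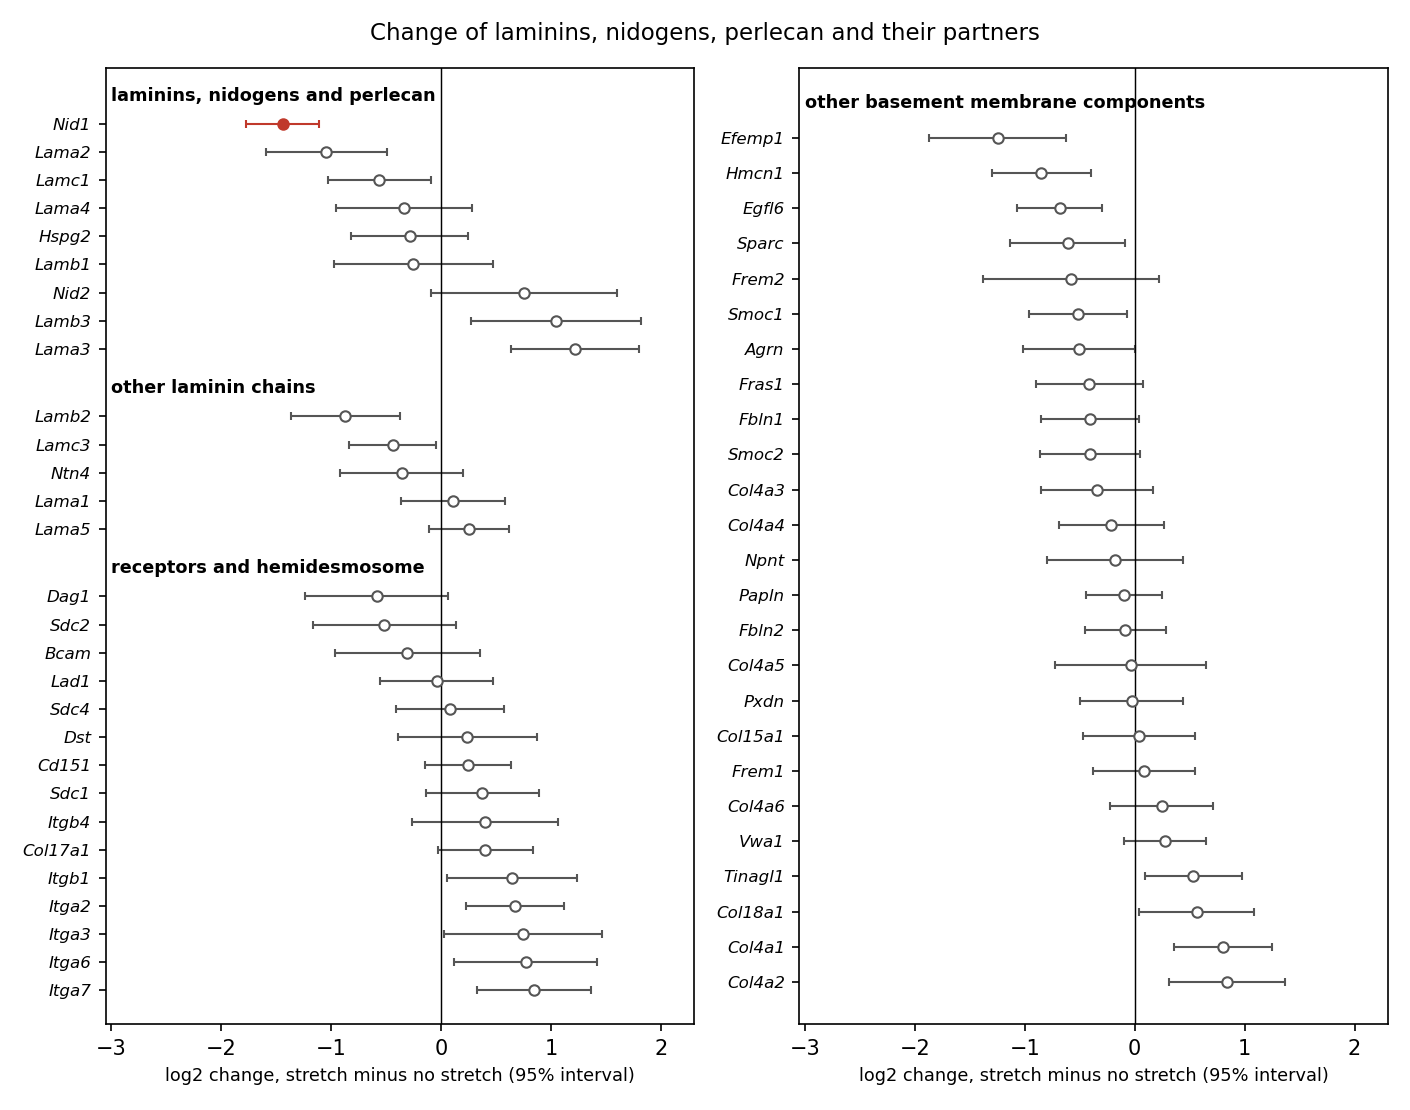
Log2 change, stretch minus no stretch, with its 95% confidence interval from limma for the 9 genes, 5 other laminin-family genes, 15 receptors and hemidesmosome genes (left) and 25 other basement membrane components (right). The filled red point, Nid1, is the gene past the adjusted threshold of 0.05, and the open points are the others.

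Proteases, heparanase and inhibitors known to act on these matrix proteins gave 19 measured genes, 13 higher and 6 lower, with a median log2 change of 0.21. This median was 0.067 without no-stretch replicate 3 and 0.35 without no-stretch replicate 1. The metalloproteinase inhibitor Timp2 was the 1 that passed (0.246% of all genes did), and it fell 2.41-fold. It was 13.28, 13.29, 12.84, 12.86 and 13.28 with stretch and 14.52, 14.48, 14.26 and 14.26 without, a log2 change of -1.27 (limma adjusted p = 0.021). It no longer passed when stretch replicate 2 or no-stretch replicate 1, 2 or 3 was left out, with an adjusted p up to 0.080. Timp1, another such inhibitor, had a log2 change of 2.69 and the gelatinase gene Mmp9 of 1.74 (limma adjusted p = 0.11 and 0.070). Mmp9 was also counted among the neutrophil markers above. Without stretch replicate 3 Timp1 had 3.11 and passed (limma adjusted p = 0.037). Timp3 had -1.31 (limma adjusted p = 0.18).

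Profiles were also compared over the 9 arrays, as the root mean square difference of log2 values after each gene was centred on its own mean. Outside the 9 genes, those nearest to Nid1 were Cd34, a surface antigen of dermal fibroblasts and vessels (0.21), the glypican gene Gpc3 (0.21) and Timp2 (0.24). All of these passed the test, with log2 changes of -1.60, -1.19 and -1.27. Nearest to Lama2 were Gsn (gelsolin), Ces1d and Ecm2, at 0.18 to 0.24, and nearest to Lama3 were Bend4, Cript and Tpd52, at 0.23 to 0.24. Within the 9 genes, Nid1 and Lama2 were nearest to each other (0.46), as were Lama3 and Lamb3 (0.41) and Lamc1 and Hspg2 (0.23). These distances are descriptions of 9 arrays that share the group difference, and have no test.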

How the data were processed

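Biotinylated cRNA from 6 ug of total RNA per sample was hybridised to Affymetrix arrays, per the labels' protocols. The deposited table holds the authors' log2 expression values for 22206 features; RMA and Transcriptome Analysis Console are named without versions, per the submitters' processing notes. RMA commonly quantile-normalizes and compresses low values, so low genes can have understated changes. For genome build, annotation and filters: not given in the sources used here. Detection calls were not used, and levels of different genes were not compared.

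Samples were grouped by title. Platform annotation named 19572 features; the row of highest mean represented each of 19505 genes, and none of the 9 shared identical values with another gene. Differences were fitted with lmFit and eBayes (limma 3.58.1, R 4.3.3), with no covariate and Benjamini-Hochberg adjustment over all genes. The test was checked on simulated data. Named genes were the 9 members, up to 4 of smallest p per list, the nearest profiles and 4 tissue markers. Further marker and collagen genes, such as Dpt, Ccl21a, Tek and Col4a2, were named after their values were seen. Members and lists were chosen with earlier results of these data known. The alternatives were scalings, filters, variance models, weights, a replicate block, a threshold and omitted arrays. Number of arrays limits precision: standard errors of log2 changes had a median of 0.21.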

Additional observations from a re-analysis of the deposited data

Results flagged for a closer look

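Among 60 groups of values from 29 genes and the laminin-332 score, 2 held an array far from the others by Dixon's test, where chance gives about 1 in 20. Nid2 in stretch replicate 3 was at 5.41, while the other stretched arrays lay between 7.09 and 7.67. Krt5 in stretch replicate 4 was at 17.16, while the other stretched arrays lay between 17.44 and 17.48.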

How the results depend on the processing

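Nid1 passed under 9 of 9 other settings (log2 change -1.50 to -1.37). It also passed in 9 of 9 fits that left out 1 array (-1.50 to -1.37, limma adjusted p 0.0065 to 0.048). The threshold of 0.1 reused the main fit, so Nid1 could not fail it. The level filter, the treatment of repeated rows and the other variance model left the log2 changes of the 9 genes unaltered. Lama3, Lamb3 and Lama2 kept their signs over all settings and omitted arrays. Their limma adjusted p ranged from 0.050 to 0.19, 0.072 to 0.47 and 0.056 to 0.32. Lamb1 ranged from -0.45 to 0.017 over omitted arrays and turned positive without stretch replicate 3, its lowest array. The number of the 9 genes past the threshold was 1 to 2 over omitted arrays and 2 at a threshold of 0.1, where Lama3 joined. Over all genes, 48 passed, with 2 to 195 over omitted arrays (2 without stretch replicate 2 or no-stretch replicate 3, 195 without stretch replicate 3), 103 among genes above the median level, 157 with array weights, 221 with the replicate block and 211 at 0.1. Of the proteases, heparanase and inhibitors, 0 to 2 passed the threshold over omitted arrays. Those past it numbered 2 above the median level, 2 with array weights, 4 with the replicate block and 2 at 0.1. Among them Timp1 passed with the block (adjusted p = 0.0029), and Mmp9 with it, with weights and above the median level (0.010, 0.047 and 0.048). Other basement membrane components numbered 1 at 0.1. The median change of the other laminin chains was -0.49 to -0.22 over omitted arrays, -0.22 with the replicate block and -0.87 above the median level, where only Lamb2 was left. The replicate numbers were not treated as pairs. After the group mean of each gene was subtracted, the remaining deviations of same-numbered arrays correlated at -0.062 to 0.34. By this measure 1 of 4 no-stretch arrays correlated best with its own number. Median centring moved the median change of all genes from -0.0034 to 0.065. The causes of these shifts were not tested unless stated. Without detection calls, low features such as Lama5 may lie near background.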
